A study of Mus musculus with 6 samples.

Results

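The interleukin-1 family and its receptors were followed here through 10 genes of the mouse corneal epithelium, taken as every row of the deposited gene table whose symbol was Il1a, Il1b, Il18, Il33, Il1rn, Il1r1, Il1r2, Il1rl1, Il1rap or Il18r1. All 10 were among the 17866 genes of the table, and all 10 held enough reads to be tested. RNA came from the separated corneal epithelium of C57BL/6 mice aged 6 months, with 3 libraries from wild type (WT) animals and 3 from animals given as Rela-/- in the labels (knockout, KO). The product of Rela, p65, is one of the DNA-binding proteins of NF-κB. According to the study's methods, floxed Rela was deleted with Krt14-Cre, which is driven by a promoter of basal epithelial cells and is therefore also active in conjunctiva and skin, and each library was an independent biological sample. Whether the WT animals carried a floxed allele or Cre is not given in the labels. The comparison asked how genes of this family differed between the epithelium without Rela and that of control animals.

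Interleukin-1α and interleukin-1β are cytokines that act through the receptor Il1r1 and its co-receptor Il1rap, which pass the signal to NF-κB through MyD88 and IRAK kinases. Their action is checked by the antagonist Il1rn, which occupies Il1r1 without signalling, and by the decoy receptor Il1r2, which binds ligand but lacks a signalling domain. Interleukin-18 and interleukin-33 are related cytokines with receptors of their own, Il18r1 and Il1rl1 (ST2), and in barrier epithelia Il1a, Il18 and Il33 are known as alarmins or precursors held in resting cells.

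Promoter windows of the members were read from RefSeq (GRCm38.p6), because the deleted gene encodes a DNA-binding protein and Il1b is a textbook target of NF-κB. Each window ran from 250 bases before to 50 after an annotated start, and all 10 members matched, with 17 windows among them. Both strands were searched for the kappa B decamer, for the shorter form GGANNTTCC and for the AP-1 form TGANTCA, which can in principle overlap one another. The 250 bases before the start are shown for the members with the largest rises or with a match within these bases. The sequences run 5′ to 3′ on the gene's strand, with matches in capitals. They are from chr2:129371140-129371389 (minus strand), chr19:29924863-29925112 (plus), chr2:129309973-129310222 (minus), chr2:24336610-24336859 (plus), chr1:40085843-40086092 (plus) and chr1:40266336-40266585 (plus). The Il1r2, Il1r1, Il1a and Il1b windows belong to starts that lie inside the interval the deposited table gives for the gene, and which start was used in these cells was not analysed here.
Il1b: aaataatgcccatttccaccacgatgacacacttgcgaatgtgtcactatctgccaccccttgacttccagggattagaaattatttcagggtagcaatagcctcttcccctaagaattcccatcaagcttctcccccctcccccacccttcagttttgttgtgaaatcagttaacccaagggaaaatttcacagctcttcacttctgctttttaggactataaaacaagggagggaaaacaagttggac
Il33: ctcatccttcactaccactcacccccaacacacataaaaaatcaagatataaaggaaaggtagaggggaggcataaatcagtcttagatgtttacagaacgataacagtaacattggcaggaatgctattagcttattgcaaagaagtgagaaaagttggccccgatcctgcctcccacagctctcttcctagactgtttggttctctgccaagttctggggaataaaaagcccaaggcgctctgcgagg
Il1a: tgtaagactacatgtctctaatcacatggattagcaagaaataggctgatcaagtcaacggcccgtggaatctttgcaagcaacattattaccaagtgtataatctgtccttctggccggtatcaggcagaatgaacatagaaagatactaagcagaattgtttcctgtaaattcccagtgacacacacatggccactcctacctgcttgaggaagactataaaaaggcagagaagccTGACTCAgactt
Il1rn: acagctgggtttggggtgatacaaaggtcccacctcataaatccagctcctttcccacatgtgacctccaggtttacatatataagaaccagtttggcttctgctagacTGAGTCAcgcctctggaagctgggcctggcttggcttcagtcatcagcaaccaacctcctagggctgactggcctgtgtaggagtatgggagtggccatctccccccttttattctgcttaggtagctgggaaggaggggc
Il1r2: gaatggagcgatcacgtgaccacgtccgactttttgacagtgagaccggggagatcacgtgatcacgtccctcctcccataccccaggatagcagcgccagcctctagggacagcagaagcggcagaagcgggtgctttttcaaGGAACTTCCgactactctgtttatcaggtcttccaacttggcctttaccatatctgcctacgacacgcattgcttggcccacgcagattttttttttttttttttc
Il1r1: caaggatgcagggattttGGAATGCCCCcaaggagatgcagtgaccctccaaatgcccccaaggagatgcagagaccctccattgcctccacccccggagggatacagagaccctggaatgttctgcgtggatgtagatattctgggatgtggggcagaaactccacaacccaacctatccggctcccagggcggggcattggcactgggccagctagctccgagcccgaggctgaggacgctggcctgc
The kappa B decamer occurred in 1 of the 17 member windows, that of Il1r1 shown above, where it lay on the opposite strand (GGAATGCCCC on the gene's strand, beginning 232 bases before the start). It was present in 8.46% of the 32851 windows of all genes. The form GGANNTTCC occurred in 2 member windows and in 4.26% of all windows. In Il1r2 it was GGAACTTCC, beginning 106 bases before the start, and in Il1rl1 it was GGAATTTCC, beginning at base 8 of the transcript. The neighbouring receptor genes Il1rl2 and Il18rap also held it, as GGAATTTCC 116 bases and GGAAATTCC 19 bases before their starts. TGANTCA was found in 2 member windows, as TGACTCA 12 bases before the start of Il1a and as TGAGTCA 141 bases before the start of Il1rn, and in 7.81% of all windows. None of the 3 forms was found in the Il1b and Il33 windows. A match of letters is given as a description of the window and not as a binding site.

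Library totals lay between 20158404 and 20880347 estimated counts, and 3 counts, used as a floor, equalled 0.137 to 0.152 CPM (counts scaled to a common library total by TMM, which corrects for composition). Such floors cover counting error only. The targeted gene Rela was counted 1871, 1844 and 1855 times in WT against 318, 223 and 313 times in KO (log2 fold change -2.60, SE 0.141, adjusted p = 2.74e-06 by edgeR). The tissue label was checked by corneal markers. Krt12 and the other 4 markers of corneal epithelium were present in every library and all 5 were lower in KO, with a summed level of 66535 to 67495 CPM in WT and 11269 to 13737 CPM in KO. All 5 epidermal markers were higher in KO, from 15.1 to 20.3 CPM summed in WT to 11563 to 23959 CPM, and so were 4 of 5 markers of conjunctiva and goblet cells. The latter summed to 1823 to 2824 CPM in WT and 52088 to 66804 CPM in KO, above the epidermal sum in every KO library. Almost all of that sum came from Krt4 and Krt13. Muc5ac had 0 counts in WT and 141, 15 and 214 in KO. Krt8 was lower by point estimate (log2 fold change -0.91) but did not pass the test. Lor, Flg, Krtdap and Muc5ac had too few WT reads to pass the filter on low counts without KO. Those 4 could only be called higher. Of all genes tested, 31.8% were higher and 30.2% lower in KO. WT replicate 2 stood apart in S100a9, with 1263 counts beside 17 and 28 in the other WT libraries, and among the members only the call of Il18 was lost without it.

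Of the 10 members, 8 differed between genotypes at an adjusted p of 0.05, and all 8 were higher in KO. The background was high, since 62.0% of the 13305 genes tested differed in either direction, 31.8% were higher and 30.2% lower in KO. At the threshold of the study's methods, an adjusted p of at most 0.001 with a fold of at least 2, 4 members passed (Il1b, Il33, Il1rn and Il1rap), beside 19.8% of all genes tested. The median log2 fold change of the members was 1.14, beside 0.01 over all genes tested. In 8 members every KO library lay above every WT library in CPM, which held for 34.7% of all genes. Bulk RNA cannot tell more cells of a type from more RNA per cell. Fold changes below are KO over WT, with the SE of the edgeR fit.

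**Figure D1:**
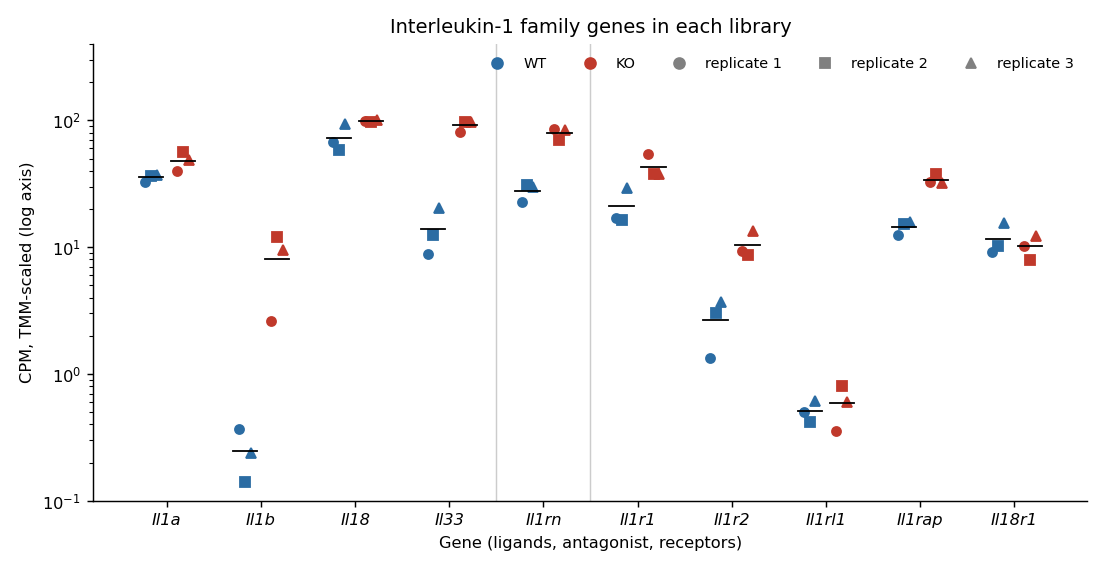
Level of each of the 10 genes in each library in CPM on a log axis, with WT in blue, KO in red, the 3 replicates by symbol and the group mean as a line. Il1b, Il33, Il1rn, Il1r1, Il1r2 and Il1rap are clearly separated by genotype, Il1a and Il18 are narrowly separated, and Il1rl1 and Il18r1 overlap.

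Among the ligands, Il1b changed most. Il1b (gene 16176, chr2:129363842-129371170, minus strand) was counted 8, 3 and 5 times in WT against 52, 241 and 190 times in KO. It was close to the floor in WT and well above it in every KO library, although KO replicate 1 was far below the other KO libraries. On the log2 scale the change was 4.99 (SE 0.660, 95% interval 3.48 to 6.50, adjusted p = 0.000282), and the ratio of mean CPM was 32.6. The size of this ratio rests on few WT reads. Il1b passed the filter only through its KO reads, so it could only be called higher. Without KO replicate 1 the log2 fold change was 5.41.

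Il33, an alarmin stored in the nucleus of barrier cells, was counted 193, 269 and 429 times in WT against 1597, 1950 and 1952 times in KO. Its mean of 13.9 ± 5.86 CPM for WT compares with 92.0 ± 9.62 CPM for KO (± SD, n = 3). The gene lies at chr19:29925114-29960715 on the plus strand. The 3 KO libraries were close together and none came near the highest WT library, and on the log2 scale KO lay 2.73 above WT (SE 0.266, adjusted p = 5.52e-05).

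Il1a, the ligand that is active without processing, had 32.6, 36.5 and 37.4 CPM in WT and 39.5, 55.8 and 48.5 CPM in KO. The groups did not overlap but KO replicate 1 lay just above the highest WT library. This amounted to 0.43 on the log2 scale (SE 0.135, adjusted p = 0.0216). This call was lost in 7 of 15 alternative fits, among them those without KO replicate 2 (0.31, adjusted p = 0.0671), KO replicate 3 (0.42, adjusted p = 0.0567) or WT replicate 1 (0.38, adjusted p = 0.0739).

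Il18, whose product needs cleavage by caspase-1, was estimated at 1469.55, 1245 and 1982 counts in WT against 1969, 1929 and 2007 in KO. WT replicate 3 overlapped the KO libraries in counts and in FPKM (counts relative to transcript length and library total), and in CPM it lay just below them, at 93.8 beside a lowest KO value of 96.8. The change was 0.44 on the log2 scale (SE 0.162, adjusted p = 0.0439), and the call was lost without any one of the libraries other than WT replicate 3 (adjusted p between 0.079 and 0.131). After a correction for transcript length the direction turned, with a log2 fold change of -0.30 (adjusted p = 0.13), or -0.20 relative to the median gene of that fit. With an effective length of 872 bases it was the shortest of the 10 members. The direction of Il18 was therefore not settled by these data, while Il1b, Il33 and Il1a kept theirs in all 15 alternatives.

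The antagonist Il1rn (chr2:24336860-24351491, plus strand) had 22.9, 30.7 and 29.6 CPM in WT and 85.3, 69.9 and 84.2 CPM in KO. All KO libraries were more than double any WT library, a log2 difference of 1.52 (SE 0.137, adjusted p = 3.58e-05). Il1rn gives rise to a secreted and to intracellular forms, which a gene-level count cannot separate. Its estimated counts were not whole numbers, so some of its reads were shared with other loci.

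Because antagonist and ligands compete for one receptor, they were also set against each other per length within each library. The ratio of Il1rn FPKM to the summed FPKM of Il1a and Il1b was 0.576, 0.681 and 0.641 in WT and 1.59, 0.764 and 1.09 in KO. Every KO library lay above every WT library, but KO replicate 2 only just. The mean difference of the log2 ratio was 0.80, a fold of 1.74, with a two-sided exact permutation p of 0.1, which is the smallest that 3 against 3 libraries can give and does not pass 0.05. Il1b made up 1.3%, 0.265% and 0.95% of the summed ligand FPKM in WT and 8.71%, 24.1% and 22.1% in KO, so that Il1a remained the more abundant of the pair in every library.

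**Figure D2:**
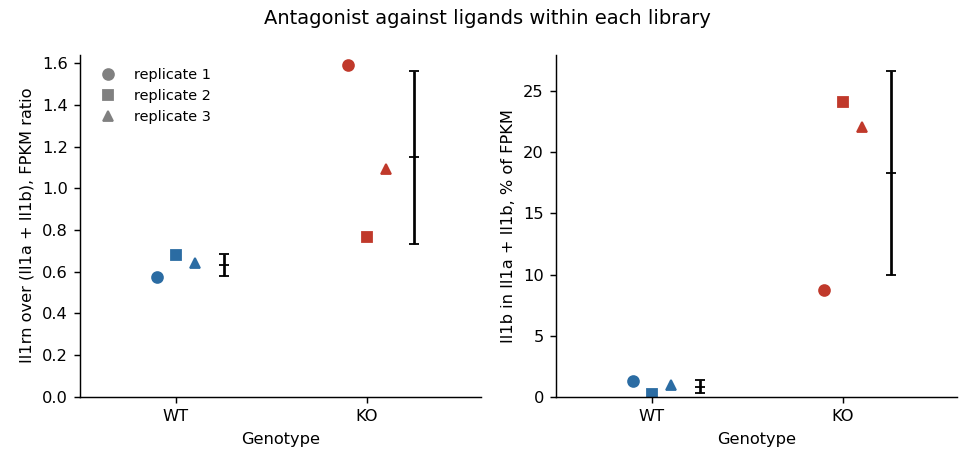
Left, ratio of Il1rn FPKM to the sum of Il1a and Il1b FPKM in each library; right, share of Il1b in that sum in %; symbols are replicates and bars are mean ± SD (n = 3). KO replicate 1 has the highest ratio (1.59) and the lowest Il1b share (8.71%) of the KO libraries.

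The signalling receptor Il1r1 (chr1:40225014-40316201, plus strand) was counted 371, 352 and 621 times in WT against 1063, 752 and 763 times in KO. WT replicate 3 was the highest WT library and still below all KO libraries, and KO exceeded WT by 1.05 on the log2 scale (SE 0.243, adjusted p = 0.00563). The co-receptor Il1rap (chr16:26581683-26730128, plus strand), shared by the receptors for interleukin-1, interleukin-33 and interleukin-36, had 12.5, 15.3 and 15.8 CPM in WT and 32.4, 37.9 and 32.1 CPM in KO. KO exceeded WT here by 1.24 on the log2 scale (SE 0.128, adjusted p = 7.41e-05).

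The decoy receptor Il1r2 rose more than the signalling receptor by point estimate. It was counted 29, 65 and 78 times in WT against 185, 174 and 267 times in KO. The groups were well apart, by 1.96 on the log2 scale (SE 0.338, adjusted p = 0.00116). Per length, the Il1r2 level was 0.262, 0.617 and 0.434 of the Il1r1 level in WT and 0.603, 0.789 and 1.19 in KO. These ratios overlapped between genotypes, and the difference between the changes of the 2 receptors was not tested.

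Il1rl1 and Il18r1, the ligand-binding receptors for interleukin-33 and interleukin-18, did not pass the test. Il1rl1 had 11.49, 9.32 and 13.38 estimated counts in WT against 7.09, 16.32 and 12.42 in KO, a log2 difference of 0.19 with a 95% interval of -0.72 to 1.10. At these few reads a change of about 2-fold up could not be told from none. Its estimated counts were not whole, and the soluble and membrane forms of ST2 were not separated. Il1rl1 is known from mast cells, whose markers were mixed. Mcpt4, Tpsb2, Cma1 and Fcer1a had 0 counts in every WT library and at most 4 in a KO library. Cpa3 was counted 19, 16 and 23 times in WT against 2, 4 and 6 times in KO, and Kit, which other cell types also express, 7985, 5265 and 6050 times against 492, 499 and 640 times, so both markers that could be tested were lower in KO. Cpa3 passed the filter only through its WT reads and could only be called lower. The part of mast cells in the Il1rl1 values was not tested.

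Il18r1 had 9.21, 10.2 and 15.5 CPM in WT and 10.2, 7.98 and 12.3 CPM in KO, and the groups overlapped throughout. The log2 difference was -0.20 (95% interval -0.73 to 0.33, adjusted p = 0.479), so that a doubling lay outside the interval. Its estimated counts were also not whole. The rise of Il33 was thus measured beside an Il1rl1 level of 0.103 ± 0.0153 FPKM in WT and 0.107 ± 0.0451 FPKM in KO.

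**Figure D3:**
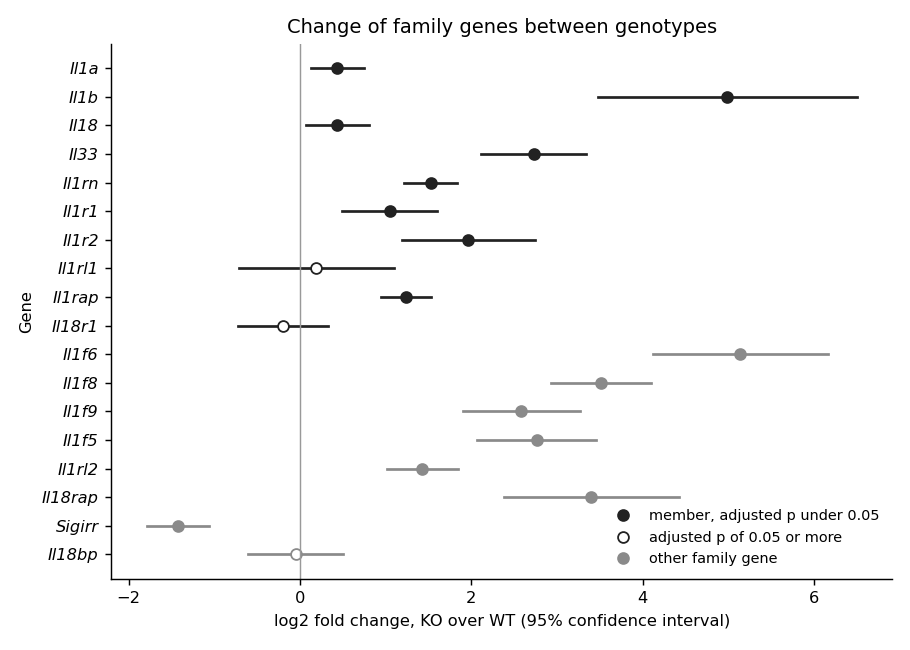
Points are log2 fold changes (KO over WT) from edgeR and bars 95% confidence intervals for the 10 members in black and the other tested family genes in grey; open symbols did not reach an adjusted p of 0.05. Il1b (4.99) and Il1f6 (5.14) lie farthest to the right and Sigirr (-1.42) to the left.

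Ordered by FPKM in WT, Il18 stood highest at 86.0 ± 21.2 FPKM, followed by Il1a (18.1 ± 1.17) and Il1rn (11.6 ± 1.6), and these did not overlap their neighbours in the order. Il33 (5.57), Il1r1 (4.58), Il18r1 (4.39) and Il1rap (3.40) followed as a run in which each overlapped the next. Il1r2 (1.99), Il1b (0.15) and Il1rl1 came last, and the ranges of Il1b and Il1rl1 overlapped. In KO, Il18 was still highest at 109.8 ± 1.94 FPKM. Il33 (34.7 ± 4.07) and Il1rn (31.1 ± 2.80) now stood above Il1a (23.3 ± 4.43), and Il33 and Il1rn overlapped. Il1r1, Il1rap, Il1r2, Il1b and Il18r1, from 8.81 down to 3.76 FPKM, formed a run of overlapping neighbours, and Il1rl1 remained far below.

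Many of these genes lie next to each other. On chromosome 1, 6 receptor genes on the plus strand span 468 kb in the order Il1r2, Il1r1, Il1rl2, Il1rl1, Il18r1 and Il18rap. Along this run Il1r2, Il1r1, Il1rl2 (receptor for interleukin-36, log2 fold change 1.43, SE 0.180) and Il18rap were higher in KO, whereas the adjacent pair Il1rl1 and Il18r1 between them did not pass the test. Il18rap, the second chain of the interleukin-18 receptor, was counted 1, 4 and 2 times in WT against 21, 26 and 25 times in KO (log2 fold change 3.40, SE 0.445, adjusted p = 0.000266). Reads were few but the groups did not overlap. Il18rap passed the filter only through its KO reads, so it could only be called higher.

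On chromosome 2, Il1rn is the last of 6 family genes within 198 kb, after Il1f8, Il1f9, Il1f6, Il1f5 and Il1f10. Il1f6, Il1f8 and Il1f9 encode the interleukin-36 ligands α, β and γ, and Il1f5 their antagonist. All 4 that could be tested were higher in KO, beside 31.8% of all genes tested. Il1f6 was counted 10, 72 and 32 times in WT against 1390, 1118 and 1233 times in KO (log2 fold change 5.14, SE 0.447, adjusted p = 3.09e-05), at a higher level than Il1b. Il1f8 changed by 3.51 (SE 0.255), Il1f9 by 2.58 (SE 0.296) and the antagonist Il1f5 by 2.76 (SE 0.303) on the log2 scale. Il1f9 was the most abundant of these 4 in KO, with 162, 156 and 128 FPKM beside 14.5, 34.7 and 30.3 in WT, and its counts were not whole. Il1f10 had at most 8 counts in any library and was not tested. The next gene after Il1rn, Psd4, was lower in KO (log2 fold change -0.39). Il1a and Il1b lie on the same chromosome in another place, with no other gene of the table between them.

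The other genes of the pathway were taken from a list of 56 by role, of which 55 were in the table and 46 tested. In all 22 were higher and 11 lower in KO, together 71.7% of those tested beside 62.0% of all genes, and their median log2 fold change was 0.66. Without WT replicate 2 they numbered 23 higher and 9 lower. Among those higher, Il18rap, Casp4, Nlrp10 and 7 genes commonly induced by interleukin-1 had too few WT reads to pass the filter without KO. These genes could only be called higher, so the counts and the median depend in part on the filter. Of the other receptors and soluble inhibitors, Sigirr, an inhibitory receptor, was the only one to fall, from 170, 155 and 179 counts to 54, 62 and 58 (log2 fold change -1.42, SE 0.159, adjusted p = 0.000111). Il18bp, which binds free interleukin-18, did not pass the test (log2 fold change -0.05, adjusted p = 0.87), and Il1rapl1 and Il1rapl2 had at most 2 counts in a library.

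Of 15 receptor-proximal signalling genes 4 were higher, 5 lower and 6 did not pass the test, with a median log2 fold change of -0.02. The share called, 60.0%, was close to the 62.0% of all genes tested. The kinase Irak2 fell from 3265, 2726 and 3158 counts to 1014, 796 and 866 (log2 fold change -1.66, SE 0.121, adjusted p = 1.21e-05). Irak3, a kinase relative that dampens the pathway, rose from 46, 44 and 34 counts to 104, 124 and 164 (log2 fold change 1.77, SE 0.229). The changes of Traf6 (0.76), Peli1 (0.74) and the adaptor Myd88 (0.64) were smaller.

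Of 13 tested genes for processing and release 5 were higher and 4 lower, together 69.2% beside 62.0% of all genes tested. Casp1, the protease that cleaves the precursors of interleukin-1β and interleukin-18, was counted 74, 121 and 96 times in WT against 750, 735 and 780 times in KO (log2 fold change 3.07, SE 0.173, adjusted p = 3.24e-06). Casp4 (3.05, SE 0.514) and Nlrp10 (5.60, SE 0.421) were higher by similar or larger amounts. Casp4 and Nlrp10 had too few WT reads to pass the filter without KO and could only be called higher. Gsdmd, which forms the pore through which interleukin-1β leaves the cell, fell from 200, 187 and 211 counts to 55, 71 and 80 (log2 fold change -1.43, SE 0.174), and the sensor Nlrp1b also fell (-1.57, SE 0.256). The data are RNA levels, so neither cleavage nor release was measured.

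Genes commonly induced by interleukin-1 were higher in 7 of 10 tested and lower in 1, with a median log2 fold change of 2.97, or 2.95 with genes at the WT floor set to their bound. Over all genes tested, 31.8% were higher and 30.2% lower in KO. Each of the 7 had too few WT reads to pass the filter without KO and could only be called higher. The count and the median therefore depend on the filter. Ptgs2, a prostaglandin synthase, was counted 3, 7 and 0 times in WT against 220, 853 and 828 times in KO (log2 fold change 7.62, SE 0.781, adjusted p = 7.04e-05). Cxcl5, a neutrophil chemokine, had 0 counts in all WT libraries and 33.27, 71.99 and 63 in KO, at least 20.1-fold higher against a floor of 3 counts per library. Mmp9 was at least 9.69-fold higher. Icam1 had a log2 fold change of 3.76 (SE 0.299) and Mmp13 one of 3.32 (SE 0.812), while Nfkbiz was the gene that fell (-0.40, SE 0.128). Il6 had 1 count in 1 library and was not tested.

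KO replicate 1, in which Il1b was lowest, was also lowest of the KO libraries in several of these genes. Relative to the KO mean, its level was 32.7% for Il1b, 35.1% for Ptgs2, 32.5% for Cxcl2, 29.6% for Mmp13, 52.4% for Mmp9 and 59.5% for Cxcl5. S100a8 (53.0%) and S100a9 (46.2%) were lowest in the same library, as were, by a smaller margin, Il1a (82.4%) and Il33 (87.9%). In contrast Il1rn (106.9%), Il1r1 (124.6%), Icam1 (113.3%), Csf3 (103.1%) and Lcn2 (116.2%) were not, nor was the leukocyte gene Ptprc (100.9%). The same library was highest in the sum of the epidermal markers, at 23958.8 CPM beside 11562.6 and 14641.5 CPM in the other KO libraries. Flg was counted 38492 times in it beside 5709 and 6826 times. Krtdap was instead highest in KO replicate 2, at 1417.4 CPM beside 1250.7 CPM in KO replicate 1. With 3 libraries this is a description of their spread, and no relation between these genes was tested.

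**Figure D4:**
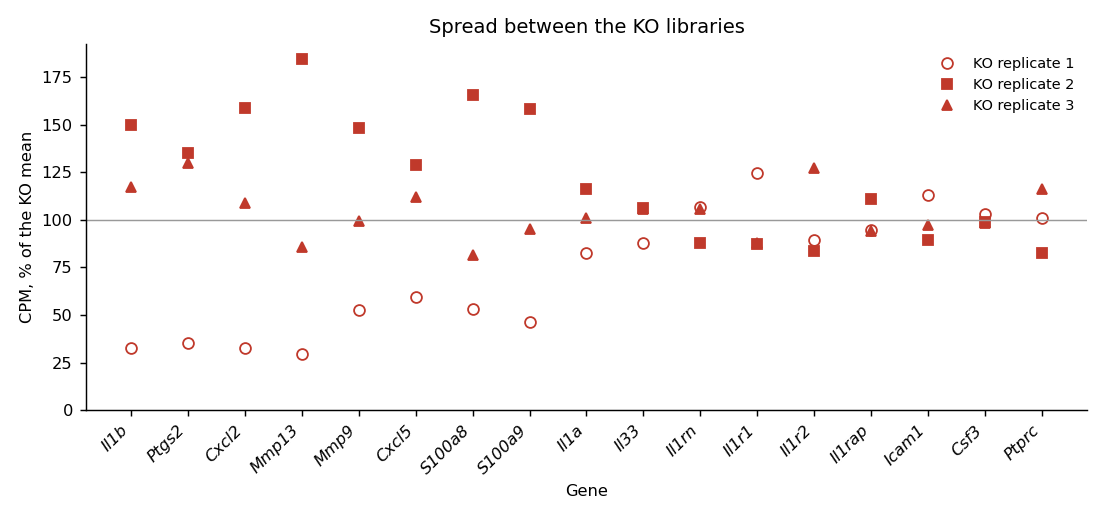
Level of each gene in the 3 KO libraries as % of their mean CPM, with KO replicate 1 as open circles. The open circle is lowest for the 8 genes at the left, from Il1b to S100a9, and for Il1a and Il33, and at or above the mean for Il1rn, Il1r1, Icam1, Csf3 and Ptprc.

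Markers of leukocytes were also compared between genotypes. Ptprc (CD45) was counted 13, 5 and 8 times in WT against 105, 87 and 123 times in KO, and all 4 general leukocyte markers were higher in KO, with a summed level of 1.91 to 2.84 CPM in WT and 20.5 to 27.7 CPM in KO. Of the 6 macrophage and monocyte markers 4 were higher, 1 lower and 1 did not pass the test, and their sum was 268.4 to 339.0 CPM in WT and 189.3 to 266.7 CPM in KO, most of it from Itgam, the gene that was lower. Adgre1, which defines macrophages, was counted 1, 0 and 1 times in WT against 31, 33 and 42 times in KO. All 4 tested markers of Langerhans and dendritic cells were higher, with a sum of 5.95 to 14.2 CPM in WT and 70.0 to 122.6 CPM in KO, and so were all 3 tested T cell markers, with a sum of 0.321 to 0.605 CPM in WT and 2.71 to 5.38 CPM in KO. The defining Langerhans cell marker Cd207 was counted 0, 1 and 2 times in WT against 13, 16 and 26 times in KO. Several of these markers, among them Ptprc, Adgre1, Cd207 and the 3 tested T cell markers, had too few WT reads to pass the filter without KO. Such markers could only be called higher, and 31.8% of all genes tested were higher in KO. Among the 5 neutrophil markers tested 4 were higher and 1 lower, their sum was 8.93 to 72.7 CPM in WT and 190.9 to 618.3 CPM in KO. In the KO libraries and WT replicate 2 most of that sum came from S100a8 and S100a9, which keratinocytes also express. The defining gene Ly6g was lower in KO, but its estimated counts were not whole. Its groups overlapped, with WT replicate 2 at 2.28 CPM and KO replicate 3 at 2.59 CPM. Retnlg had 0 counts in WT and at most 9 in KO.

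The sum of the mast cell list, 245.7 to 366.6 CPM in WT and 25.1 to 32.6 CPM in KO, was almost all Kit. Of the other lists, 3 of 4 tested markers of keratocytes and fibroblasts and the 1 tested endothelial marker were higher, and both tested melanocyte markers were lower. Those higher in KO again had too few WT reads to pass the filter without KO. The part of these other cells, and of the epidermal and conjunctival genes noted above, in the changes of the members was not tested.

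**Figure D5:**
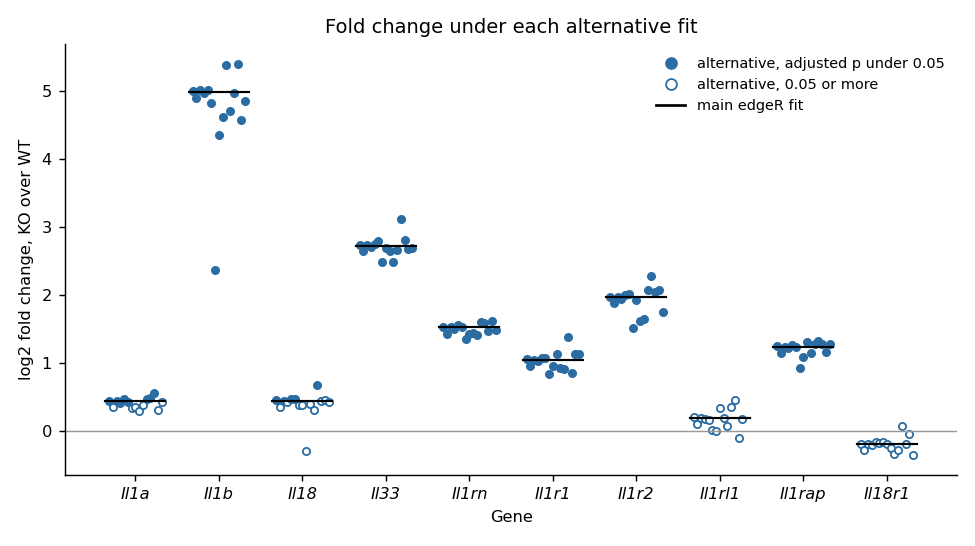
Log2 fold change of each member under the 15 alternative fits (points, filled where the adjusted p was under 0.05) and in the main fit (line); Il1rl1 has 14 points. Il1b, Il33, Il1rn, Il1r1, Il1r2 and Il1rap are filled throughout, Il1a and Il18 only in part, and Il1rl1 and Il18r1 never.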

How the data were processed

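RNA-seq libraries of corneal epithelium (3 WT, 3 KO, grouped by the titles) were analysed from 1 deposited table of 17866 genes. Per the study's methods, rRNA was depleted and single-end reads were sequenced on a BGISEQ instrument, whereas the labels name an Illumina kit. Reads were filtered by the authors with SOAPnuke and aligned with Bowtie2 (2.2.5) and gene levels were estimated with RSEM (1.2.12, versions per the labels). The labels name mm9, but the coordinates in the table are those of GRCm38. The deposited estimated counts are not normalized and need not be whole where reads fit several loci. The deposited FPKM values relate them to effective length and library total. The deposited TPM values served only to check that they sum to 1000000. The table also holds the authors' group averages and their DESeq2 log2 fold changes and p-values, which were not used.

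Counts were rounded and tested with edgeR 4.0.16 (R 4.3.3; TMM, filterByExpr, glmQLFit and glmQLFTest, a single genotype term). The filter asks for enough reads in as many libraries as 1 group holds. Genes with few reads in 1 genotype, such as Il1b and Il18rap in WT, were tested through the other genotype. Those genes could be called in 1 direction only. P-values were adjusted over all 13305 tested genes by the Benjamini-Hochberg method, and 95% intervals came from the same fit. The script was tested on simulated counts. Alternatives were RLE factors, library totals, DESeq2 1.42.0, no filter, a mean count of at least 50, a replicate block, limma 3.58.1 on log2(FPKM + 1) and log2(FPKM + 0.1), a loess correction for length, and leaving out each library. The ratio of Il1rn to its ligands was compared by an exact permutation test over libraries. The members and gene lists were chosen with earlier results of these data known. The genes named are all members, Rela, listed pathway genes past the threshold (at most the 5 of largest change per role), every other family ligand and receptor, defining markers, and genes within the family's clusters. Cxcl2, Csf3, Lcn2, Nfkbiz, Psd4, Itgam, Flg, S100a8, S100a9, Il6, the remaining mast cell markers and Retnlg were named after their values were seen. Of the listed genes, Csf2, Trac, Kera, Cdh5 and Emcn were not analysed here. Whether counting used strand is not given in the sources used here.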

Additional observations from a re-analysis of the deposited data

How the results depend on the processing

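In every one of the 15 alternatives 6 to 8 members were called, all higher in KO and none lower. Il1b, Il33, Il1rn, Il1r1, Il1r2 and Il1rap kept direction and call throughout. The log2 fold change of Il1b lay between 2.37, on log2(FPKM + 1), and 5.41, and that of Il33 between 2.49 and 3.12. Il1a stayed positive (0.29 to 0.56) but lost its call in 7 alternatives, and Il18 kept its call in 5. Reversed signs were those of Il18 after length correction (-0.30), of Il1rl1 without KO replicate 2 (-0.10; 0.447 at the other end, without KO replicate 1) and of Il18r1 without WT replicate 3 (0.076; -0.361 without KO replicate 3), none of them called; the causes were not tested. The median log2 fold change over all genes was -0.10 with the length correction and 0.11 with DESeq2, beside 0.01 in the edgeR fit reported. Pathway calls numbered 28 to 38, and calls over all genes 7100 to 8714.

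The log2 ratio of Il1rn to its ligands differed by 0.53 to 1.06 with a library left out (lowest without KO replicate 1) and by 0.91 from CPM.

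Same-numbered libraries did not deviate together (correlations 0.03, -0.01 and 0.06, beside -0.159 to 0.123 for the other combinations). With 3 libraries per group these correlations cannot exclude a pairing, and the libraries were treated as unpaired. With the replicate block, 8 members and 8083 genes were called, and no member's call changed. With 3 libraries per group, p-values rest on a small spread, and low genes such as Il1rl1 and Il1b in WT are limited by their reads.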
